A study of Rattus norvegicus with 20 samples.

Results

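Mitosis needs a machine that is built anew in each division: a spindle of microtubules, kinetochores that tie chromosomes to it, kinases that time the steps, and a contractile ring that cuts the cell in 2. The genes described here are 47 such genes, picked by name for their known functions and sorted into 8 function groups. They were picked with earlier results of these data known. Probe sets with these symbols were found for 42 of the 47 among 14217 genes measured. Kif4a, Ndc80, Tpx2 and Ncapg are on no probe set that the probe table names, and Anln is only on a probe set shared by several genes, so these 5 have no value here. Each measured gene is represented by its brightest probe set, chosen over all arrays without regard to group.

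The values come from islets of male Wistar rats of 8 weeks, hybridised to Affymetrix arrays, with 5 arrays in each of 4 groups. All islets were cultured with 8 mM glucose and 10% serum. Untreated islets received no virus. The other groups received adenovirus for GFP (the virus control), for Nr4a1 or for Nr4a3 for 18 h, and islets were collected 48 h after the virus was added. The series asks, by its title, whether both receptors raise cell cycle genes. The titles and the design text name these 3 viruses, whereas the treatment protocol names viruses for βgal and Nkx6.1; the groups follow the titles. The labels call the replicates biological, but which rats or islet batches stand behind each array is not given, so the p-values measure the spread between these samples.

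Nr4a1 and Nr4a3 are orphan nuclear receptors, transcription factors that bind DNA without a known physiological ligand and that are induced as early response genes. Adult beta cells divide rarely, and mitosis genes are as a rule low in resting tissue. Most mitosis genes are transcribed in one wave in G2 and mitosis. In dividing cells this wave is driven through a promoter element called the cell cycle genes homology region (CHR), read by the B-MYB, MuvB and FOXM1 complexes, often together with CCAAT boxes bound by NF-Y. In resting cells the same element recruits the repressive DREAM complex. The spindle assembly checkpoint holds separase in check until every kinetochore is attached. Then sisters separate, and the centralspindlin complex places the cleavage furrow.

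The promoters show how widely that element is shared. RefSeq (GRCr8) gives a window of 300 bases, from 250 before to 50 after the annotated start, for 44 of the 47 genes; Aurkb, Racgap1 and Tpx2 were not in the table. The CHR letters TTTGAA, on either strand (TTCAAA on the other), stood in 33 of the 44 windows, which is 75.0%, against 18.3% of all 33469 windows in the table. A CCAAT box (CCAAT or ATTGG) stood in 30 windows, 68.2% against 37.5%. Both stood in 25 windows, 56.8% against 7.41%. The variant CHR TTCGAA was found in 2 windows, 4.55% against 1.69%. The E2F site TTTCCCGC or TTTGGCGC, in either orientation, was found only in Kif18a, which is 2.27% against 1.45%. The NR4A monomer site AAAGGTCA (TGACCTTT on the other strand) was in none of the 44, against 1.43% of all windows. A match is only these letters in this window, and the absence of a match says nothing about binding.

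The 4 windows below were chosen to show the range: Ect2 had the largest difference from GFP of all members for both viruses, Kif22 the largest receptor-to-receptor difference, Cks2 holds 4 CCAAT boxes before 1 CHR match, and Melk rose without a TTTGAA match. Capitals mark TTTGAA and CCAAT on either strand, and the rest is lower case; each runs 5′ to 3′ along the gene.
Ect2 (GRCr8, chr2:111966577-111966876, minus strand): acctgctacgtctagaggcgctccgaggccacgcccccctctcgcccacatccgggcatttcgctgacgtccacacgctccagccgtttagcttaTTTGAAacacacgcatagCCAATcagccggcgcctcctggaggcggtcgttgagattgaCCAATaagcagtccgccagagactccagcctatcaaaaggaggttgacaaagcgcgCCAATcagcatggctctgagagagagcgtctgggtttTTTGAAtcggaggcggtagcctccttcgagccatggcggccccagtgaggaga
Kif22 (GRCr8, chr1:191080829-191081128, minus strand): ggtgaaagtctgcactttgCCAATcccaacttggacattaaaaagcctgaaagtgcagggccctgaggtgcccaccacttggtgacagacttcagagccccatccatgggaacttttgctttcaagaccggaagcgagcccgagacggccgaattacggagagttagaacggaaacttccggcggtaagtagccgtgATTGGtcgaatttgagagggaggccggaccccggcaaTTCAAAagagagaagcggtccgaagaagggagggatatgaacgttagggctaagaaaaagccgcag
Cks2 (GRCr8, chr17:13727470-13727769, minus strand): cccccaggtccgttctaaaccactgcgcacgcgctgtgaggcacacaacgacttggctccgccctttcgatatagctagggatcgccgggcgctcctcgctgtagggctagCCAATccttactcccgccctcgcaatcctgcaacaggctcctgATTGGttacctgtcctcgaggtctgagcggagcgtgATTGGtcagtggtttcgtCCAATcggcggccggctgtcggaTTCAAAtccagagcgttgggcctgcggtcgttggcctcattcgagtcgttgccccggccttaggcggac
Melk (GRCr8, chr5:63335901-63336200, plus strand): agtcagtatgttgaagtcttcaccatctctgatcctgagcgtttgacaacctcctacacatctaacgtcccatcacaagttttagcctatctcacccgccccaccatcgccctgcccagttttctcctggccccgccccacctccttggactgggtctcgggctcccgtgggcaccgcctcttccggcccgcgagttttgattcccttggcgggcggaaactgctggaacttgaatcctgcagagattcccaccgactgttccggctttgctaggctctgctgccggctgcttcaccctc

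In Ect2, Kif22 and Cks2 a CCAAT box lies shortly before a CHR match close to the start. Such a pair, with the centres 20 to 60 bases apart and the CCAAT box upstream, was found in 15 of the 44 windows, 34.1% against 1.4% of all windows. A TTTGAA match within 50 bases of the start stood in 23 windows, 52.3% against 5.19%. Both of these distance limits were chosen after the positions had been seen. Of 41 TTTGAA matches, 28 lay on the gene's own strand and 13 on the other. The 11 genes with a window but no TTTGAA were Aurka, Bub1, Cenpe, Cenpk, Dlgap5, Kif11, Kif18a, Kif20a, Kif2c, Melk and Ncaph.

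**Figure D1:**
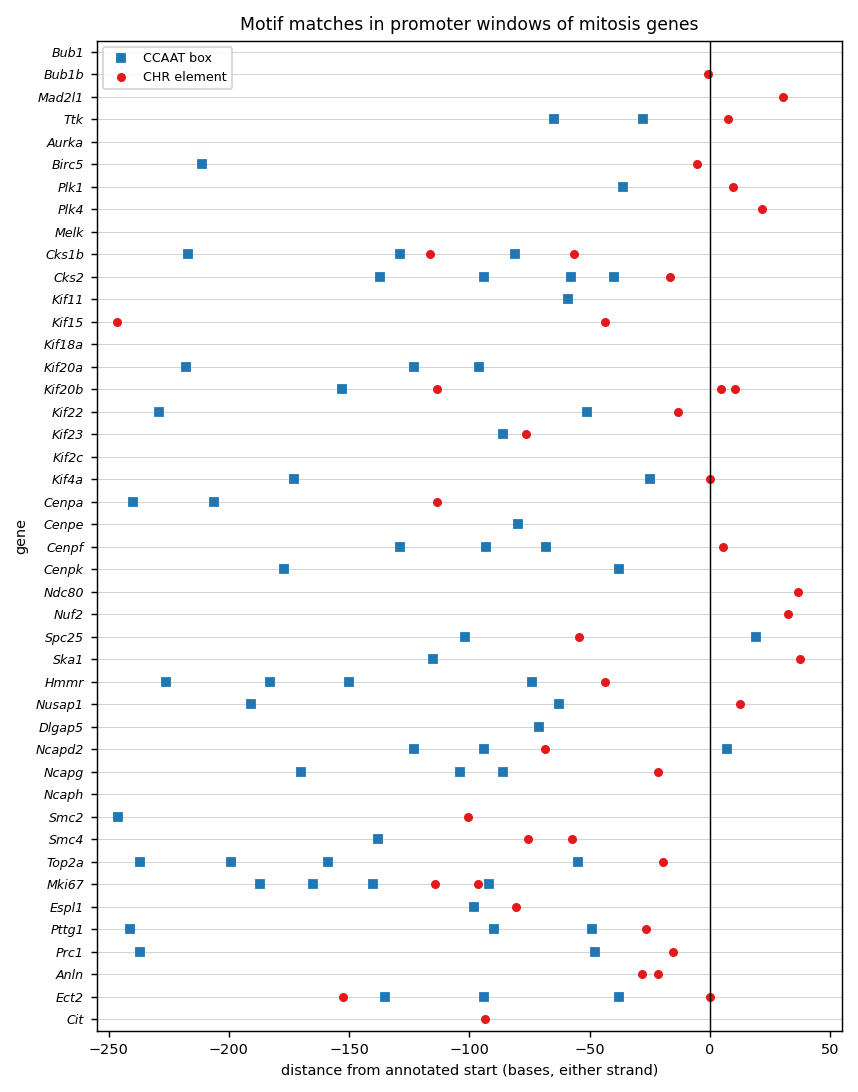
Positions of motif matches in the promoter windows of mitosis genes: the x axis is the distance from the annotated start in bases, each row is a gene, and marks are matches on either strand. TTTGAA matches of 23 genes lie within 50 bases of the start.

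The delivered genes and single arrays were checked first. The Nr4a1 probe set differed from GFP by -0.07 ± 0.09 (log2 ± SE) under the Nr4a1 label, which did not pass (limma adjusted p = 0.775; n = 5 arrays per group here and throughout). For the Nr4a3 probe set, the arrays labelled Nr4a3 differed from GFP by 0.19 ± 0.1 (limma adjusted p = 0.421), and the Nr4a1 ones by 0.44 ± 0.1, which passed (0.00562). Whether these probe sets cover what the viruses carried is not given, so they check the labels neither way, and the groups are called by their labels throughout. Array Nr4a3 replicate 2 stood apart: its mean correlation with the other arrays was 0.941, against 0.982 to 0.989 for the rest, and its 3′ minus 5′ difference on the actin control probe sets was 4.62, against 1.5 to 2.21. This array was the highest Nr4a3 array for 22 of the 42 mitosis genes and the lowest for 5. Without it the median Nr4a3 difference from GFP of the 42 was 0.68, against 0.72 with it. Calls that change when it is left out are given beside the genes. In all, 7 were gained with Nr4a1, 2 with Nr4a3, and none was lost. Within the control groups the mitosis genes shared their high and low arrays. GFP replicate 4 was the highest GFP array for 32 of the 42 genes, untreated replicate 5 the highest untreated array for 30, and untreated replicate 3 the lowest for 35.

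Mitosis genes were higher with both receptors and did not pass the test with the control virus. With Nr4a1, 31 of the 42 measured genes rose against GFP and 0 fell (limma, adjusted p under 0.05 over all 14217 genes), where 6.16% of all genes rose. With Nr4a3, 25 of 42 rose and 0 fell, where 1.75% of all genes rose. The list was chosen with earlier results of these data known, so these counts describe it and are not an independent test. Without GFP replicate 4 these counts were 33 and 21. The Nr4a3 count was 8 to 12 with any one of GFP replicates 1, 2, 3 and 5 or Nr4a3 replicates 1 and 3 left out, and 9 with only the 10 arrays of the comparison fitted. In whole islets, more dividing cells and more RNA per cell cannot be told apart. The median log2 difference of the 42 was 0.75 with Nr4a1 and 0.72 with Nr4a3, and the medians of all genes were within 0.01 of 0. The differences ran from -0.47 to 1.5 with Nr4a1, 41 of 42 above 0, and from 0.03 to 1.59 with Nr4a3, all 42 above 0. Both comparisons use the same 5 GFP arrays, so a shift in those arrays would enter both. In all 5 arrays of a receptor group, values lay above all 5 GFP arrays for 27 genes with Nr4a1, where the same held for 10.6% of all genes, and for 20 with Nr4a3, where it held for 3.12%. Cit was the 1 gene of the 42 whose Nr4a1 arrays all lay below the GFP arrays, which held for 801 of all 14217 genes.

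Each function group had members that rose. In the order of the list, the rises with Nr4a1 and then with Nr4a3 were 4 and 2 of 4 checkpoint genes, 6 and 6 of 8 kinases and partners, 5 and 4 of 8 kinesins, 3 and 2 of 7 kinetochore genes, 3 and 3 of 3 spindle assembly genes, 5 and 4 of 6 condensin and chromosome genes, 2 and 1 of 2 separation genes, and 3 and 3 of 4 cytokinesis genes. Group medians lay between 0.65 and 1.07 (log2) with Nr4a1 and between 0.57 and 1.0 with Nr4a3, and spindle assembly had the highest median in both. Of all members, 25 rose with both receptors, 6 only with Nr4a1, 0 only with Nr4a3, and 11 with neither.

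**Figure D2:**
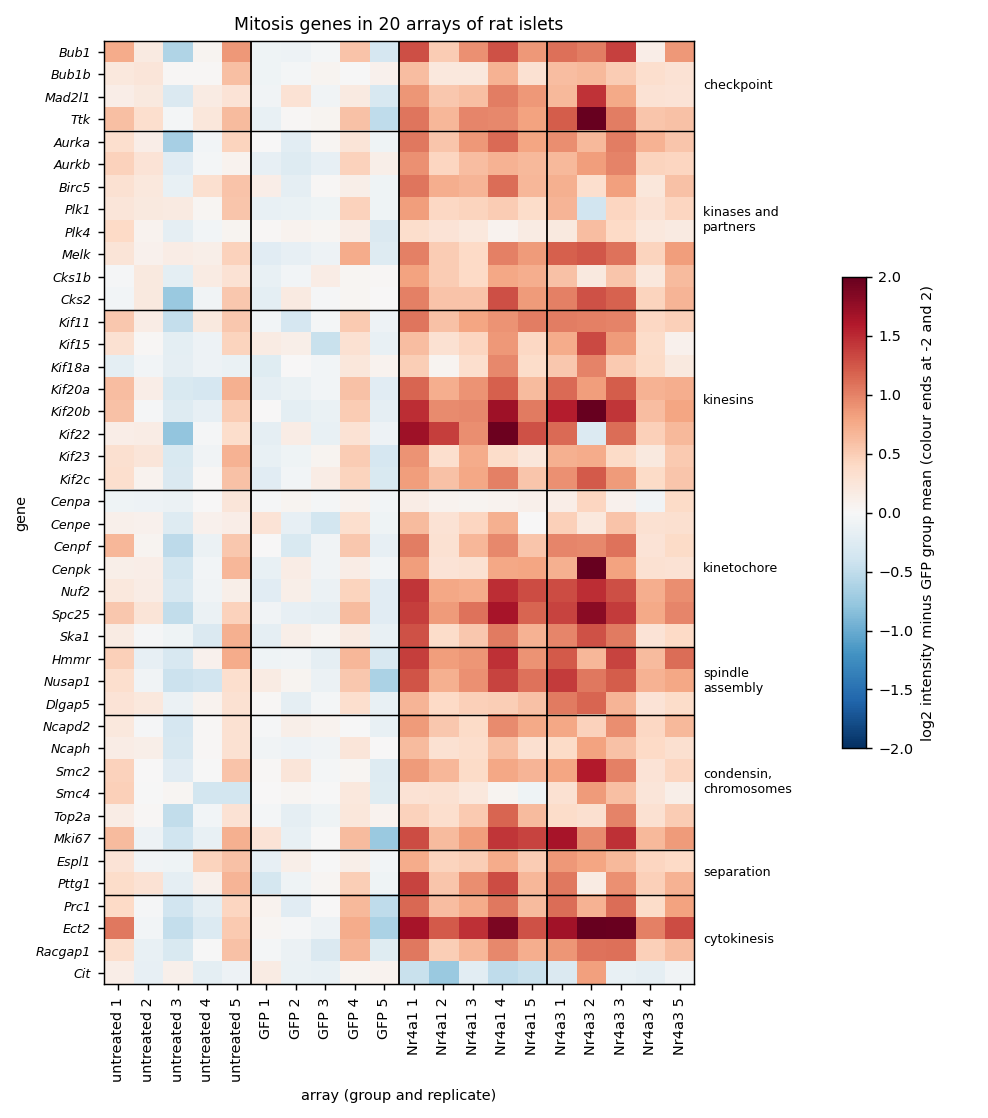
Each row is a mitosis gene and each column 1 of the 20 arrays, in groups; colour is the log2 value relative to the gene's own mean over the GFP arrays. Most genes are higher in the 10 receptor arrays, and GFP replicate 4 is the highest GFP array for 32 of the 42 genes.

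**Figure D3:**
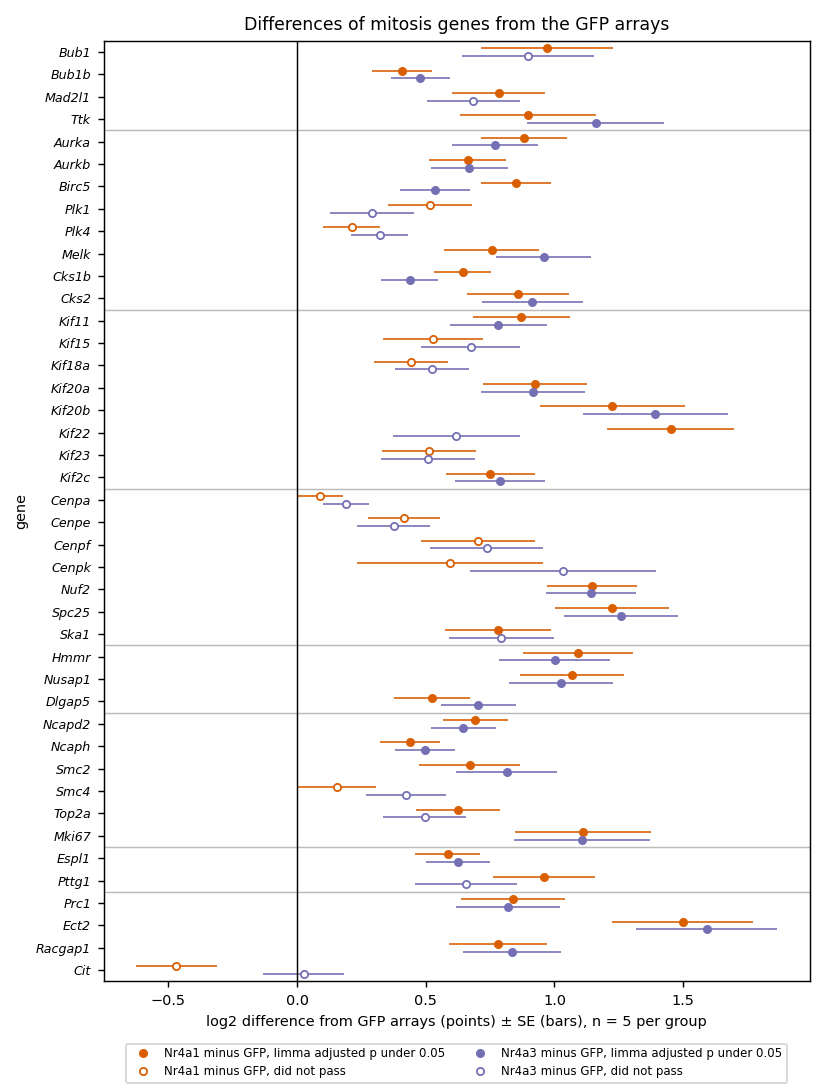
The log2 difference from GFP with its SE for each of the 42 genes, with the Nr4a1 and Nr4a3 arrays as separate points (n = 5 per group). Filled points passed the test (31 genes with Nr4a1 and 25 with Nr4a3) and open points did not.

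Checkpoint genes delay anaphase. Mad2l1, which blocks the anaphase-promoting complex while kinetochores are unattached, read 6.54, 6.89, 6.54, 6.78 and 6.28 (log2 intensity) in GFP replicates 1 to 5. It read 6.73, 6.81, 6.32, 6.77 and 6.87 in the untreated arrays, 7.49, 7.15, 7.21, 7.63 and 7.47 with Nr4a1 and 7.26, 8.06, 7.36, 6.89 and 6.88 with Nr4a3. Every Nr4a1 array was above every GFP array, whereas the Nr4a3 arrays fell into 3 high and 2 that only reached the top of GFP. The difference from GFP was 0.78 ± 0.18 with Nr4a1 (1.72-fold, limma adjusted p = 0.0084). With Nr4a3 it was 0.68 ± 0.18, which missed the threshold (0.056). Without Nr4a3 replicate 2 the Nr4a3 difference was 0.49 (limma adjusted p = 0.0592). Bub1b, the kinase-like partner of Mad2 in the checkpoint complex, read 5.92, 5.98, 6.06, 6.01 and 6.09 with GFP and 6.22, 6.26, 6.03, 6.03 and 6.61 untreated. Its Nr4a1 arrays read 6.63, 6.22, 6.22, 6.7 and 6.32 and its Nr4a3 arrays 6.63, 6.65, 6.52, 6.35 and 6.3, all above the GFP arrays. It rose by 0.41 ± 0.12 with Nr4a1 (limma adjusted p = 0.0312) and by 0.48 ± 0.12 with Nr4a3 (0.0332). Ttk, the kinase that starts checkpoint signalling, rose by 0.9 ± 0.26 and 1.16 ± 0.26 with Nr4a1 and Nr4a3. Nr4a3 replicate 2 read 7.55, and without it the Nr4a3 difference of Ttk was 0.84 (limma adjusted p = 0.0145). Bub1, which places checkpoint proteins at kinetochores, rose by 0.97 ± 0.26 with Nr4a1, and with Nr4a3 differed by 0.9 ± 0.26 without passing (limma adjusted p = 0.0842).

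Kinases and their partners time mitosis. Cks2, a small protein that docks substrates to cyclin-dependent kinases, read 8.47, 8.84, 8.65, 8.71 and 8.68 with GFP and 8.62, 8.86, 7.93, 8.6 and 9.2 in untreated arrays. Its receptor arrays read 9.68, 9.24, 9.23, 9.95 and 9.52 with Nr4a1 and 9.67, 9.93, 9.85, 9.11 and 9.35 with Nr4a3. No receptor array reached down to the GFP arrays, and untreated replicate 3 was the lowest of all 20. The rise was 0.86 ± 0.2 with Nr4a1 (1.81-fold, limma adjusted p = 0.00809) and 0.91 ± 0.2 with Nr4a3 (1.88-fold, 0.017). Melk, a kinase of the mitotic programme, read 5.2, 5.27, 5.33, 6.16 and 5.17 with GFP and 5.69, 5.51, 5.57, 5.54 and 5.89 untreated. With Nr4a1 it read 6.44, 5.94, 5.83, 6.43 and 6.28, and with Nr4a3 6.63, 6.66, 6.51, 5.87 and 6.26. GFP replicate 4 overlapped both receptor groups and the other 4 GFP arrays did not. Melk rose by 0.76 ± 0.18 with Nr4a1 (limma adjusted p = 0.0122) and by 0.96 ± 0.18 with Nr4a3 (0.00784). Aurka, the kinase of the spindle poles, rose by 0.88 ± 0.17 and 0.77 ± 0.17, and Cks1b, the sister of Cks2, by 0.64 ± 0.11 and 0.44 ± 0.11. The passenger complex that corrects faulty attachments was represented by Aurkb, its kinase, and Birc5, its survivin subunit. Aurkb rose by 0.66 ± 0.15 and 0.67 ± 0.15 with Nr4a1 and Nr4a3, and Birc5 by 0.85 ± 0.14 and 0.53 ± 0.14. Plk1 and Plk4, the kinases of mitotic entry and of centriole duplication, passed with neither: Plk1 differed by 0.52 ± 0.16 and 0.29 ± 0.16, and Plk4 by 0.21 ± 0.11 and 0.32 ± 0.11. Without Nr4a3 replicate 2, which enters only through the shared estimate of spread, the Nr4a1 difference of Plk1 passed (limma adjusted p = 0.00523).

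Kinesins move along microtubules or take them apart. Kif22, a motor that pushes chromosome arms away from the poles, read 8.01, 8.34, 8.04, 8.47 and 8.08 with GFP and 8.32, 8.33, 7.4, 8.16 and 8.54 untreated. It read 9.88, 9.58, 9.12, 10.15 and 9.47 with Nr4a1 and 9.32, 7.91, 9.3, 8.67 and 8.84 with Nr4a3. All Nr4a1 arrays were clear of GFP, whereas Nr4a3 replicate 2 fell below every GFP array and the other 4 lay above them. Kif22 rose by 1.45 ± 0.25 with Nr4a1 (2.74-fold, limma adjusted p = 0.000793) and differed by 0.62 ± 0.25 with Nr4a3 (0.275). Without Nr4a3 replicate 2 the Nr4a3 difference was 0.84 and passed (limma adjusted p = 0.0358). Kif20b, which acts in the midzone and cytokinesis, read 5.52, 5.32, 5.38, 6.03 and 5.33 with GFP and 6.09, 5.49, 5.25, 5.35 and 6.03 untreated. It read 7.0, 6.46, 6.47, 7.21 and 6.56 with Nr4a1 and 7.09, 8.06, 6.95, 6.13 and 6.3 with Nr4a3, with no overlap between either group and GFP. The rise was 1.22 ± 0.28 (2.34-fold, limma adjusted p = 0.00804) with Nr4a1 and 1.39 ± 0.28 (2.63-fold, 0.0116) with Nr4a3. Without Nr4a3 replicate 2 the Nr4a3 difference of Kif20b was 1.1. Kif11, which slides the poles apart, rose by 0.87 ± 0.19 and 0.78 ± 0.19 with Nr4a1 and Nr4a3. Kif20a, which carries the passenger complex to the midzone, rose by 0.92 ± 0.2 and 0.92 ± 0.2. Kif2c, which takes down wrongly attached microtubules, rose by 0.75 ± 0.17 and 0.79 ± 0.17. Kif15, which backs up Kif11, Kif18a, which dampens chromosome swings, and Kif23, the motor of centralspindlin, passed with neither receptor. Their differences with Nr4a1 and Nr4a3 were 0.53 ± 0.19 and 0.67 ± 0.19 for Kif15, 0.44 ± 0.14 and 0.52 ± 0.14 for Kif18a, and 0.51 ± 0.18 and 0.51 ± 0.18 for Kif23. The Nr4a1 differences of Kif15 and Kif18a passed without Nr4a3 replicate 2 (limma adjusted p = 0.0301 and 0.0151).

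Kinetochores tie each chromosome to the spindle. Nuf2 and Spc25, subunits of the NDC80 complex that grips microtubules, rose with both receptors. Nuf2 read 6.62, 6.96, 6.73, 7.28 and 6.61 with GFP and 7.06, 6.99, 6.53, 6.77 and 6.96 untreated. In the receptor arrays it read 8.27, 7.61, 7.59, 8.32 and 8.15 with Nr4a1 and 8.15, 8.31, 8.13, 7.57 and 7.76 with Nr4a3, with every array above GFP. Its rise was 1.15 ± 0.17 (2.21-fold, limma adjusted p = 0.000272) and 1.14 ± 0.17 (2.21-fold, 0.00116). Spc25 read 6.27, 6.18, 6.17, 6.97 and 6.12 with GFP and 6.88, 6.6, 5.84, 6.23 and 6.8 untreated. Its Nr4a1 arrays read 7.72, 7.2, 7.42, 7.99 and 7.5 and its Nr4a3 arrays 7.7, 8.15, 7.75, 7.1 and 7.31. Only GFP replicate 4 came close to the receptor arrays, and none overlapped. Spc25 rose by 1.22 ± 0.22 (2.34-fold, limma adjusted p = 0.00125) with Nr4a1 and by 1.26 ± 0.22 (2.39-fold, 0.0039) with Nr4a3. Ska1, a partner of NDC80 at microtubule ends, rose by 0.78 ± 0.21 with Nr4a1 and differed by 0.79 ± 0.21 with Nr4a3 (limma adjusted p = 0.0503). Cenpa, the histone that marks the centromere, differed by 0.09 ± 0.09 and 0.19 ± 0.09, and Cenpe, the kinesin of the corona, by 0.42 ± 0.14 and 0.38 ± 0.14, with neither passing. Cenpf, a corona protein, differed by 0.7 ± 0.22 with Nr4a1 (limma adjusted p = 0.0529) and 0.74 ± 0.22 with Nr4a3 (0.103). Cenpe and Cenpf passed with Nr4a1 when Nr4a3 replicate 2 was left out (limma adjusted p = 0.0415 and 0.0302). Cenpk, of the inner plate, read 6.71, 7.0, 6.78, 7.0 and 6.8 with GFP and 6.98, 6.99, 6.5, 6.8 and 7.52 untreated. It read 7.7, 7.13, 7.16, 7.63 and 7.64 with Nr4a1 and 7.57, 9.92, 7.67, 7.16 and 7.14 with Nr4a3. All receptor arrays lay above all GFP arrays, and Nr4a3 replicate 2 was far above the rest. The Nr4a1 difference of 0.6 ± 0.36 (limma adjusted p = 0.406) passed without Nr4a3 replicate 2 (0.0136). The Nr4a3 difference of 1.03 ± 0.36 (limma adjusted p = 0.188) became 0.53 (limma adjusted p = 0.101) without Nr4a3 replicate 2.

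All 3 spindle assembly genes rose with both. Nusap1, which bundles spindle microtubules, read 7.36, 7.26, 7.08, 7.74 and 6.56 with GFP and 7.53, 7.13, 6.77, 6.82 and 7.53 untreated. It read 8.46, 7.91, 8.12, 8.55 and 8.29 with Nr4a1 and 8.59, 8.25, 8.42, 7.89 and 7.98 with Nr4a3, each receptor array above every GFP array. The rise was 1.07 ± 0.2 (2.1-fold, limma adjusted p = 0.00181) and 1.03 ± 0.2 (2.04-fold, 0.00998). Hmmr, a microtubule-binding protein of spindle poles, read 6.08, 6.1, 5.99, 6.83 and 5.85 with GFP and 6.65, 6.01, 5.85, 6.26 and 6.91 untreated. It read 7.55, 7.0, 7.06, 7.63 and 7.07 with Nr4a1 and 7.39, 6.84, 7.53, 6.81 and 7.29 with Nr4a3. GFP replicate 4 lay just above the lowest Nr4a3 array and below all Nr4a1 arrays. Hmmr rose by 1.09 ± 0.21 (limma adjusted p = 0.0024) and 1.0 ± 0.21 (0.0169). Dlgap5, which stabilises kinetochore fibres, rose by 0.52 ± 0.15 and 0.7 ± 0.15.

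Condensin folds chromosomes for separation. Ncaph, its kleisin subunit, read 7.42, 7.4, 7.43, 7.74 and 7.51 with GFP and 7.65, 7.61, 7.17, 7.53 and 7.8 untreated. It read 8.14, 7.8, 7.85, 8.1 and 7.81 with Nr4a1 and 7.89, 8.31, 8.08, 7.89 and 7.82 with Nr4a3; the groups were close together but did not overlap with GFP. Ncaph rose by 0.44 ± 0.12 (limma adjusted p = 0.0215) and 0.5 ± 0.12 (0.0292). Ncapd2, a further regulatory subunit, read 5.96, 6.1, 6.05, 5.98 and 5.84 with GFP and 6.19, 5.96, 5.64, 6.01 and 6.28 untreated. Its Nr4a1 arrays read 6.83, 6.52, 6.37, 6.93 and 6.74 and its Nr4a3 arrays 6.76, 6.45, 6.92, 6.4 and 6.63, clear of the narrow GFP range. Ncapd2 rose by 0.69 ± 0.13 (limma adjusted p = 0.00135) and 0.65 ± 0.13 (0.00948). Of the ATPase core, Smc2 rose by 0.67 ± 0.2 and 0.81 ± 0.2, whereas Smc4 differed by 0.15 ± 0.15 and 0.42 ± 0.15 and passed with neither. Without Nr4a3 replicate 2 the Nr4a3 differences were 0.62 for Smc2 and 0.31 for Smc4. Mki67, the protein behind the Ki-67 stain for dividing cells, rose by 1.11 ± 0.26 with Nr4a1 and 1.11 ± 0.26 with Nr4a3. Top2a, which untangles sister DNA, rose by 0.63 ± 0.16 with Nr4a1 and differed by 0.5 ± 0.16 with Nr4a3 (limma adjusted p = 0.148).

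Separation of the sisters is done by separase, Espl1, held by securin, Pttg1. Espl1 read 6.15, 6.42, 6.3, 6.42 and 6.25 with GFP and 6.57, 6.24, 6.23, 6.75 and 6.89 untreated. It read 7.06, 6.75, 6.79, 7.05 and 6.81 with Nr4a1 and 7.17, 7.1, 6.95, 6.74 and 6.71 with Nr4a3. No receptor array overlapped GFP, whereas untreated replicates 4 and 5 lay within the receptor ranges. Espl1 rose by 0.59 ± 0.13 (limma adjusted p = 0.0048) and 0.63 ± 0.13 (0.0113). Pttg1 read 7.35, 7.61, 7.74, 8.19 and 7.62 with GFP and 8.07, 7.99, 7.52, 7.8 and 8.38 untreated. It read 9.06, 8.25, 8.63, 9.01 and 8.36 with Nr4a1 and 8.76, 7.86, 8.61, 8.18 and 8.39 with Nr4a3. The Nr4a1 arrays all lay above GFP, and 2 Nr4a3 arrays lay within the GFP range. Pttg1 rose by 0.96 ± 0.2 with Nr4a1 (1.94-fold, limma adjusted p = 0.00365) and differed by 0.66 ± 0.2 with Nr4a3 (0.106). Without Nr4a3 replicate 2, the lowest of its group, the Nr4a3 difference was 0.78 and passed (limma adjusted p = 0.0305).

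Cytokinesis held the member with the largest difference from GFP. Ect2, the exchange factor that activates RhoA at the furrow, read 6.32, 6.26, 6.19, 7.03 and 5.65 with GFP and 7.34, 6.23, 5.81, 6.01 and 6.81 untreated. It read 7.93, 7.52, 7.75, 8.18 and 7.57 with Nr4a1 and 7.97, 8.3, 8.27, 7.3 and 7.59 with Nr4a3, and no receptor array overlapped GFP. Ect2 rose 2.83-fold with Nr4a1 (1.5 ± 0.27 log2, limma adjusted p = 0.00141) and 3.01-fold with Nr4a3 (1.59 ± 0.27 log2, 0.00344). Racgap1, the partner of Kif23 that recruits Ect2, read 7.82, 7.74, 7.58, 8.55 and 7.62 with GFP and 8.2, 7.72, 7.55, 7.85 and 8.44 untreated. It read 8.91, 8.35, 8.52, 8.82 and 8.59 with Nr4a1 and 8.74, 8.95, 8.96, 8.34 and 8.48 with Nr4a3. GFP replicate 4 overlapped both receptor groups; the other 4 GFP arrays did not. Racgap1 rose by 0.78 ± 0.19 (limma adjusted p = 0.0127) and 0.84 ± 0.19 (0.0254). Prc1, which bundles the midzone, rose by 0.84 ± 0.2 and 0.82 ± 0.2. Cit, the citron kinase of the late midbody, was the exception. It read 8.14, 7.83, 7.82, 8.03 and 8.04 with GFP and 8.11, 7.81, 8.07, 7.78 and 7.87 untreated. It read 7.53, 7.23, 7.76, 7.46 and 7.53 with Nr4a1 and 7.68, 8.79, 7.82, 7.8 and 7.91 with Nr4a3. The Nr4a1 arrays all lay below GFP, with a difference of -0.47 ± 0.16 that missed the threshold (limma adjusted p = 0.0732), and with Nr4a3 the difference was 0.03 ± 0.16 (0.958). Without Nr4a3 replicate 2, whose value is the high one, the Nr4a1 difference passed (limma adjusted p = 0.0014) and the Nr4a3 difference was -0.17 (0.434).

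**Figure D4:**
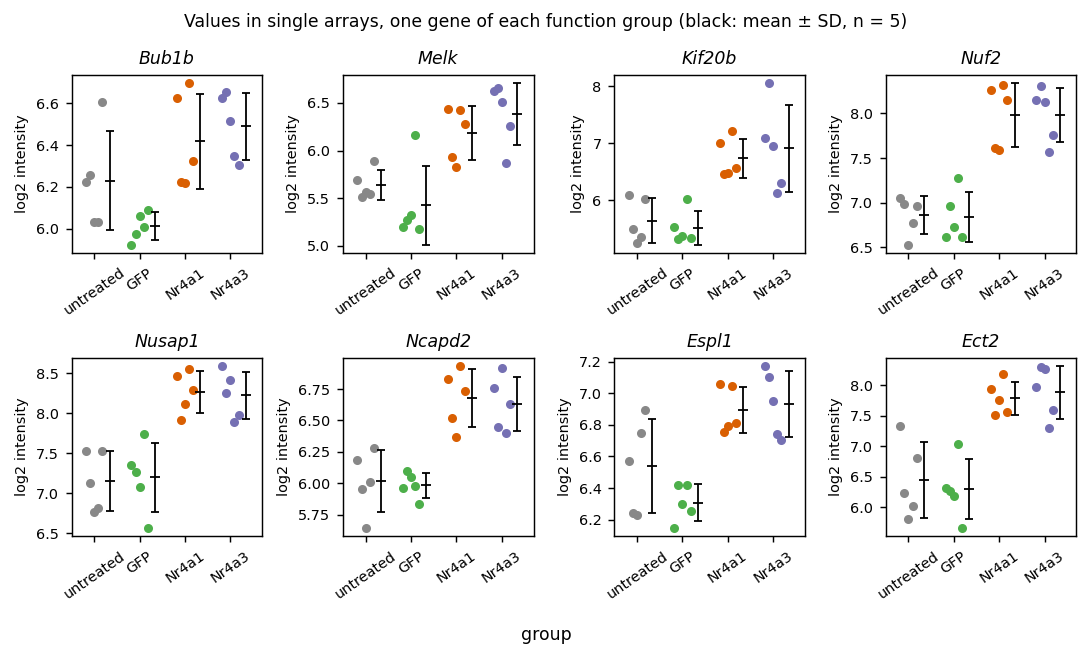
Log2 values in single arrays for 1 gene of each function group, by group (x axis). Black marks are the mean and SD of 5 arrays. Each gene is the member with the smallest larger adjusted p over both receptor comparisons. A difference from GFP was thus part of the choice. The receptor arrays sit above most GFP arrays, and in Melk the highest GFP array overlaps both receptor groups.

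The 2 receptors were then compared directly. No member passed between the Nr4a1 and Nr4a3 arrays (limma), where 0.633% of all genes passed in either direction; 3 members had an unadjusted p under 0.05, as did 11.5% of all genes. These were Kif22 with a difference of 0.83 (95% interval 0.32 to 1.35, limma adjusted p = 0.174), Birc5 with 0.32 (0.03 to 0.6, 0.383) and Cit with -0.49 (-0.82 to -0.17, 0.211). The median over the 42 was -0.02. So the 6 genes that rose only with Nr4a1 were not shown to differ between receptors: the difference was 0.07 for Bub1, 0.1 for Mad2l1, 0.3 for Pttg1, -0.01 for Ska1 and 0.13 for Top2a beside that of Kif22. Without Nr4a3 replicate 2 the differences were 0.61 for Kif22, 0.27 for Birc5, -0.3 for Cit, 0.1 for Bub1, 0.29 for Mad2l1, 0.18 for Pttg1, 0.11 for Ska1 and 0.08 for Top2a, and no member passed. In the comparison with GFP, Kif22 and Pttg1 also passed with Nr4a3 once that array was left out. The control virus had no detected effect on them: 0 of 42 passed between GFP and untreated arrays, where 0% of all genes passed, and 0 had an unadjusted p under 0.05, against 2.9% of all genes. The differences ran from -0.35 to 0.14 with a median of -0.1, and 34 of 42 were below 0, a larger share than the 57.6% of all genes.

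How firmly a call stands differed between receptors. With Nr4a1, 23 of the 31 calls held with any single array left out, and counts ran from 23 to 38; the 8 others were Bub1, Bub1b, Ttk, Ska1, Dlgap5, Ncaph, Smc2 and Top2a. With Nr4a3, 8 of the 25 held (Melk, Kif20b, Nuf2, Spc25, Nusap1, Ncapd2, Espl1 and Ect2), and counts ran from 8 to 28. The Nr4a3 count dropped to 8 without Nr4a3 replicate 1, to 9 without Nr4a3 replicate 3, to 9 without GFP replicate 2, to 10 without GFP replicate 5, to 11 without GFP replicate 1 and to 12 without GFP replicate 3. Without Nr4a3 replicate 2 the counts were 38 with Nr4a1 (37 up and Cit down) and 27 with Nr4a3. When only the 10 arrays of a comparison were fitted, 38 genes were called with Nr4a1 and 9 with Nr4a3. Nuf2, Spc25, Ncapd2, Espl1 and Ect2 kept their Nr4a3 call in each setting in which they were tested.

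Other probe sets of the same genes agree in sign more than in call. For 12 members there were 13 further probe sets, of which 12 lay above 0 with either receptor; 4 passed with Nr4a1 and 2 with Nr4a3 (limma, adjusted over all probe sets). Kif11 and Top2a passed with both receptors on their second probe set. The second Top2a probe set showed 0.98 with Nr4a1 and 0.86 with Nr4a3. Kif23 and Kif2c showed little on theirs: 0.05 and 0.04 for Kif23, and 0.13 and 0.07 for Kif2c. Those probe sets were dimmer, with means of 5.49 for Kif23 and 4.58 for Kif2c, against 7.0 and 6.6 on the ones used. The 1 further probe set below 0 was that of Cit, with -0.08 and -0.09, and passed with neither. It was dim, with a mean of 4.57, so the lower Cit values with Nr4a1 rest on 1 probe set.

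Genes of the neighbouring cell cycle steps moved in the same direction in smaller shares, and 0 fell in each list. Of 17 mitotic entry and exit genes, 8 rose with Nr4a1 and 5 with Nr4a3, with medians of 0.29 and 0.17. Ccnb1, the mitotic cyclin, rose by 1.17 ± 0.18 with Nr4a1, and Cdk1, its kinase, by 1.37 ± 0.26 with Nr4a1 and 1.23 ± 0.26 with Nr4a3. Of 59 other mitosis machinery genes, 22 and 18 rose, with medians of 0.28 and 0.29. Spc24, the partner of Spc25, rose by 0.86 ± 0.16 and 0.89 ± 0.16, and Cdca8, a passenger complex subunit, by 0.83 ± 0.14 and 0.75 ± 0.14. Of 43 G1/S and E2F target genes, 19 and 11 rose, with medians of 0.42 and 0.38; Ccne1, the cyclin of S phase entry, rose by 0.83 ± 0.14 and 1.05 ± 0.14.

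With the letters TTTGAA in the promoter window, 21 of 29 measured genes rose with Nr4a1 (median 0.78) and 16 with Nr4a3 (median 0.67). Without TTTGAA, 8 of 11 rose with Nr4a1 (0.75) and 7 with Nr4a3 (0.78). The split is by these exact letters only, so the 11 genes are not shown to lack a CHR. No test was made of this split.

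The receptor arrays also differed from GFP in markers of other cell types, whose part in the mitosis result was not tested. With Nr4a1, 20 of 22 acinar markers rose (median 2.54), for example Pnlip, pancreatic lipase, by 3.07 ± 0.44; with Nr4a3, 1 of 22 rose (median 0.85). Mean acinar levels per array ran from 7.01 to 9.35 with GFP, 7.07 to 10.37 untreated, 9.84 to 11.17 with Nr4a1 and 8.78 to 9.62 with Nr4a3. So Nr4a1 arrays lay above GFP in acinar markers, whereas Nr4a3 arrays overlapped it. The mean over the 42 mitosis genes was 6.37 to 6.92 with GFP, 6.29 to 6.99 untreated, 7.06 to 7.51 with Nr4a1 and 6.96 to 7.55 with Nr4a3. Within both control groups the array with the highest acinar mean was also the highest in mitosis genes: untreated replicate 5 (acinar 10.37, mitosis 6.99) and GFP replicate 4 (9.35, 6.92). These were also the control arrays with the highest endothelial means, 8.12 and 7.88. Other control arrays departed from this. Untreated replicate 3 had an acinar mean of 8.66 and the lowest mitosis mean of all 20 arrays, 6.29, and GFP replicate 2 had 9.12 and 6.51. Nr4a1 replicate 2 (acinar 9.84, mitosis 7.06) and Nr4a3 replicate 4 (8.78, 6.96) were the lowest of their groups in both. The highest receptor arrays differed: replicate 1 in acinar markers in both groups, but Nr4a1 replicate 4 and Nr4a3 replicate 2 in mitosis genes. Nr4a1 replicates 4 and 1 were close in mitosis genes, at 7.51 and 7.49. Nr4a3 replicate 2 is the array that stood apart, and replicates 3 and 1 came next, at 7.47 and 7.43. In acinar markers Nr4a3 replicates 3, 4 and 5, at 8.8, 8.78 and 8.86, lay below GFP replicates 2 and 4. They lay above GFP replicates 1, 3 and 5, at 7.7, 7.01 and 7.51. Their mitosis means were 7.47, 6.96 and 7.11, above those of all GFP arrays. The mean acinar level of the group was 8.14 with GFP and 9.05 with Nr4a3. Whether acinar and mitosis levels go together was not tested. Of all genes, 2.55% fell with Nr4a1 and 0.176% with Nr4a3. Of 12 beta cell markers, 6 fell with Nr4a1 (median -0.56) and 1 with Nr4a3 (-0.36). Mean beta cell levels ran from 12.04 to 12.19 with GFP, 12.03 to 12.23 untreated, 11.41 to 11.92 with Nr4a1 and 11.22 to 12.04 with Nr4a3 (from 11.85 without replicate 2). Of 12 endothelial markers, 6 fell with Nr4a1 (-0.5) and 2 with Nr4a3 (-0.35). Mean endothelial levels were 7.33 to 7.88 with GFP, 7.56 to 8.12 untreated, 6.79 to 7.29 with Nr4a1 and 7.04 to 7.26 with Nr4a3, so both receptor groups lay below all GFP arrays. In fibroblast markers 0 of 17, in leukocyte markers 0 of 15 and in other hormone cells 0 of 7 passed with either receptor. All 17 fibroblast markers still lay below 0 with Nr4a1 (median -0.32), and 12 with Nr4a3 (-0.22). Of all genes, 50.4% and 49.3% lay below 0. Medians with Nr4a1 and Nr4a3 were -0.04 and -0.21 for leukocyte markers and -0.03 and -0.06 for other hormone cells. Of 9 duct markers, 1 rose with Nr4a1 and 0 with Nr4a3. No deposited value is 0, so no marker is at 0. The GAPDH control probe sets, whose 3′ minus 5′ difference rises with RNA degradation, gave 0.5 to 0.74 with GFP, 0.27 to 0.36 with Nr4a1 and 0.41 to 0.57 with Nr4a3 apart from replicate 2, which gave 2.06.

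**Figure D5:**
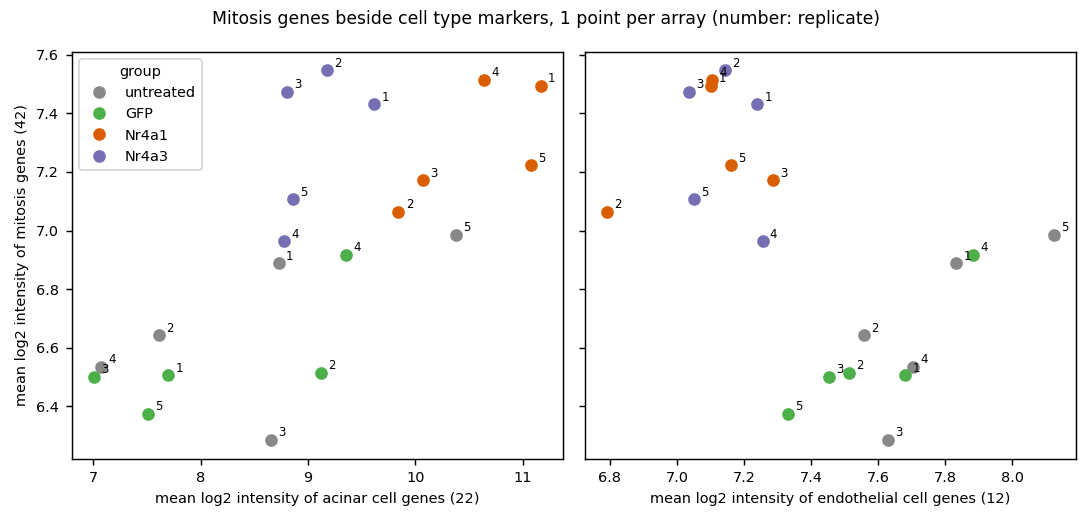
The mean log2 intensity of the 42 mitosis genes (y axis) against that of acinar (left) and endothelial markers (right), 1 point per array with its replicate number. Receptor arrays lie above the GFP range in mitosis genes; in acinar markers Nr4a1 arrays lie above GFP arrays and Nr4a3 arrays overlap them, and in endothelial markers both receptor groups lie below GFP.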

How the data were processed

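RNA of 20 arrays (4 groups of 5) was measured on an Affymetrix rat array after biotin labelling. The deposited values are intensity values per probe set that the authors made with RMA (background correction, quantile normalization and probe summary), per the submitters' processing notes, with no version stated there. Their scale is linear, from 7.69 to 34261, and were log2-transformed with no further scaling; array medians were 98.9 to 103. The number of arrays limits the precision, and detection calls and scan batches were not used here.

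Of 31099 probe sets, 20826 carry 1 symbol, 436 several and 9831 none. Of these symbols, 20758 were checked against RefSeq by gene identifier and 0 changed. The brightest probe set, by its average across the 20 arrays, stood for each of the 14217 genes, and 4525 genes had more than 1 candidate.

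A single fit in limma 3.58.1 (R 4.3.3) covered every array and gave each group its own mean (16 residual and 3.64 prior degrees of freedom, moderated two-sided tests). P-values were adjusted by the Benjamini-Hochberg method over all genes, with 0.05 as the threshold for a call. Differences are first group minus second. The script was tested on simulated data. Genes given in every array were, per function group, the brightest member and the one with the smallest larger adjusted p over both receptor comparisons (the next where these coincide); values of Cit and Cenpk in every array were added after they had been seen. Members that passed in neither comparison are given with their differences, and each other list could supply at most 4 named genes, those with the lowest adjusted p. The members and all gene lists were chosen with earlier results of these data known. Fold and p-values here are computed and none are the authors'. Promoter windows come from the RefSeq table (GRCr8), matched by symbol, with Python 3.11.15.

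The alternatives tried were fits to only the 10 arrays compared, array weights, a replicate block, a variance trend with robust moderation, repeated quantile normalization, median centring, a pseudocount of 50, leaving out the dimmest 30% of genes, averaging the probe sets of each gene, testing all probe sets together, and each array left out in turn.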

Additional observations from a re-analysis of the deposited data

Results flagged for a closer look

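Of 168 sets of 5 arrays (42 genes in 4 groups), 12 had an array whose gap to its nearest neighbour was over 0.71 of the range, the limit for 5 values at 95%; chance alone gives about 1 in 20 sets. All values are log2 intensities. GFP replicate 4 was the highest of its group in 6 of the 12: Plk1 at 8.05, Melk at 6.16, Kif20a at 7.40, Spc25 at 6.97, Hmmr at 6.83 and Racgap1 at 8.55. GFP replicate 5 was the lowest for Plk4, at 7.12. Untreated replicate 3 was the lowest for Mad2l1, at 6.32, and for Cenpe, at 5.13. Nr4a3 replicate 2 was the highest for Cenpk, at 9.92, and for Cit, at 8.79. Nr4a3 replicate 3 was the highest for Top2a, at 8.39.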

How the results depend on the processing

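The count of mitosis genes called with Nr4a1 (31) ran from 25 to 40 over the settings other than single arrays left out, and from 23 to 38 with 1 of the 20 arrays left out. The count with Nr4a3 (25) was less settled: it was 9 with only the 10 arrays compared, 16 with the replicate block and 38 with array weights, and ran from 8 to 28 with 1 array left out. Filtering out the dimmest 30% of genes removed 12 of the 42 members, so calls of these were not tested there. Nr4a1 against Nr4a3 and GFP against untreated stayed at 0 in all 30 alternatives. The median log2 difference with Nr4a1 was 0.49 with a pseudocount of 50, which shrinks differences of dim genes by construction; the cause of the other shifts was not tested. Counting each gene in each setting, 50 calls were lost and 41 gained with Nr4a1, and 145 lost and 33 gained with Nr4a3. Further, 162 differences uncalled in both settings changed sign, while 0 called ones did. Replicate numbers were not shown to pair the samples: of 30 same-number pairs, 7 correlated above 0.1 (range -0.30 to 0.50), and in 4 the own number was best. Such correlations cannot settle whether arrays of the same number share an islet batch. Of the 42 members, 23 have a GFP mean below the arrays' median of 6.65 (log2) over all probe sets. This median is not a background level, and whether the dim members lie near background was not tested.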
